A study of Mus musculus with 26 samples.

Results

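The hypoxia response and glycolysis genes of the mouse are taken here as a list of 38 genes, chosen by name among the 55401 genes of the deposited count tables. The list holds 3 HIF alpha subunits, 4 genes of oxygen sensing, 9 classic HIF targets, 3 transporters, 11 genes of upper glycolysis (the 2 PFKFB enzymes included), 6 of lower glycolysis and 2 lactate dehydrogenase genes. Their levels were followed in dorsal root ganglia (DRG), which hold the cell bodies of sensory neurons, after crush of the sciatic nerve, after sham surgery, in cultured DRG neurons, and between mice with and without a conditional knockout of the aryl hydrocarbon receptor gene *Ahr*. All 38 genes passed the filter on low counts in every fit.

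Cells sense oxygen through the prolyl hydroxylases encoded by *Egln1*, *Egln2* and *Egln3*, which mark HIF alpha proteins for destruction by the von Hippel-Lindau protein (*Vhl*) while oxygen is plentiful. When oxygen falls, HIF alpha proteins are spared, pair with ARNT and switch on genes for glucose uptake, glycolysis and blood vessel growth. This control acts mainly on the protein, so the mRNA of a HIF subunit does not measure its activity. ARNT is also the partner of the aryl hydrocarbon receptor (AhR), which binds small foreign and dietary molecules, so the HIF and AhR pathways share a subunit. Glycolysis feeds the energy needs of neurons and of the glia around them, and growing axons are known to use it.

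The study compared conditional knockout mice (cKO, Ahr f/f Thy1-CRE(ERT2/EYFP), a tamoxifen-inducible Cre driven by the *Thy1* promoter of neurons) with control mice that carried floxed alleles (Ahr fl/+, f/+ or fl/fl) and no Cre. In the first count table, mice of both genotypes received tamoxifen (100 mg/kg on each of 5 days) at 28 weeks of age. Lumbar ganglia L4 to L6 came from 3 mice per genotype 5 weeks later without injury (naive), and from 3 per genotype 1 day after sciatic nerve crush at that age (injured). The supplemental table held semi-purified DRG neurons 24 h after seeding (3 libraries per genotype, all from females, controls Ahr fl/fl) and ganglia of the operated (ipsilateral) and other (contralateral) side 1 day after sham surgery in 2 male mice per genotype. For the supplemental libraries no tamoxifen is stated. Naive and injured controls were 2 Ahr fl/+ mice and 1 Ahr fl/fl mouse each, and the sham controls 1 Ahr f/+ mouse and 1 Ahr fl/fl mouse.

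Levels are given as CPM (a gene's counts relative to the library's total), scaled over all 26 libraries. Depth ran from 20169388 to 23540375 counts per library for naive and injured ganglia, from 39306414 to 58751270 for sham ganglia and from 25299938 to 88180611 for neurons. *Atf3*, a transcription factor induced by axon injury, was at 10.5 to 16.3 CPM in the 6 naive libraries and at 500.5 to 737.1 in the 6 injured ones. It was at 11.01 to 13.36 CPM on the sham contralateral side, at 44.5 to 189.7 on the ipsilateral side and at 761.3 to 863.9 in the neurons. The *Ahr* level was not lower in cKO: it was 18.0 to 22.8 CPM in naive control and 21.4 to 26.8 in naive cKO ganglia. The counts cover the whole gene, also outside the deleted part, so they cannot check the deletion. *Thy1*, whose promoter drives the transgene, was at 674.1 to 760.2 CPM in naive control and 1193 to 1335 in naive cKO libraries. All 6 naive libraries are female by label and transcripts. Of the injured libraries, control 3 is labelled male but had female transcripts, cKO 2 is labelled female but had male transcripts, and cKO 3 is male by both. By transcripts, crush in cKO therefore sets 3 females against 1 female and 2 males, while crush in control is within females. The *Thy1* level of injured control 3 (746.0 CPM) lay with the other injured controls (719.2 and 768.6) and that of injured cKO 2 (1397 CPM) with the other injured cKO libraries (1182 and 1292), as labelled. Among the sham libraries, ipsilateral cKO 2 had a summed level of 3 skeletal muscle markers of 1226 CPM, against 12.5 in ipsilateral cKO 1, 2.31 to 14.3 in the ipsilateral controls and 14.8 to 291.1 on the contralateral side.

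To show the regulatory sequence of the genes that moved, the promoter windows (250 bases before to 50 after the transcription start, RefSeq, GRCm38.p6) of 6 of the 7 members that changed after crush in both genotypes are printed 5′ to 3′ on the gene's strand. *Slc2a3* has no window in the table used. Capitals mark the hypoxia response core ACGTG, or GCGTG, in either orientation. Within its window, *Hif1a* had 3 matches to ACGTG, of which 2 are the same palindromic CACGTG read on both strands, *P4ha2* had 2 of each motif, *Slc2a1* 1 of each, *Pfkfb3* 1 ACGTG, *Pfkfb4* 1 GCGTG and *Pdk1* 2 GCGTG.
Hif1a (chr12:73907617-73907916, plus strand): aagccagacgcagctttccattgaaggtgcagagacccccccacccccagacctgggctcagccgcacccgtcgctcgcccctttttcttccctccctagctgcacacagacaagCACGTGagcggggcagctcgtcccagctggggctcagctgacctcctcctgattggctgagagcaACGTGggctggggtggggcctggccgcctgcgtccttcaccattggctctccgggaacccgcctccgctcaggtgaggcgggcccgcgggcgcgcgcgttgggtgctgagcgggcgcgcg
P4ha2 (chr11:54100674-54100973, plus strand): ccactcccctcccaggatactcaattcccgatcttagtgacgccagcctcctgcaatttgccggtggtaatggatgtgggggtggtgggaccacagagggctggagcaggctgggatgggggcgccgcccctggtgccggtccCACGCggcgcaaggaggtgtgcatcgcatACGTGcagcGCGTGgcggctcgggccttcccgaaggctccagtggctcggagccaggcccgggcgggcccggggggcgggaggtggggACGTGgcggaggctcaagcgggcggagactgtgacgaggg
Slc2a1 (chr4:119108495-119108794, plus strand): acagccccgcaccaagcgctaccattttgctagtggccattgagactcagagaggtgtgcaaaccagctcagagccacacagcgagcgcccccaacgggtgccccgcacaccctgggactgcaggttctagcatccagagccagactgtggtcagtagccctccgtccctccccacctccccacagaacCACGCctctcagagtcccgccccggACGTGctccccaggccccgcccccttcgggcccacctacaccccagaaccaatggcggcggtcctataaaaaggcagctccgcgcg
Pfkfb3 (chr2:11553880-11554179, minus strand): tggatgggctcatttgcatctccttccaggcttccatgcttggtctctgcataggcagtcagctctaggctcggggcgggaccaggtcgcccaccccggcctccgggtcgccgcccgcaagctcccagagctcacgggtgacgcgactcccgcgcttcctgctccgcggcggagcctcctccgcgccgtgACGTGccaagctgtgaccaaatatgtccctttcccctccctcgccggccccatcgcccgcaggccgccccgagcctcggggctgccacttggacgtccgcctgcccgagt
Pfkfb4 (chr9:108991652-108991951, plus strand): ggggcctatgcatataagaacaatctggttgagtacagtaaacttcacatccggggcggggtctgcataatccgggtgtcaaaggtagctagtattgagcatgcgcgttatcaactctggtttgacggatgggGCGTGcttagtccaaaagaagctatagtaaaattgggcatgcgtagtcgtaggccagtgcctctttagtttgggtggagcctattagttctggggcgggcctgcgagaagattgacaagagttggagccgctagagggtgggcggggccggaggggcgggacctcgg
Pdk1 (chr2:71872974-71873273, plus strand): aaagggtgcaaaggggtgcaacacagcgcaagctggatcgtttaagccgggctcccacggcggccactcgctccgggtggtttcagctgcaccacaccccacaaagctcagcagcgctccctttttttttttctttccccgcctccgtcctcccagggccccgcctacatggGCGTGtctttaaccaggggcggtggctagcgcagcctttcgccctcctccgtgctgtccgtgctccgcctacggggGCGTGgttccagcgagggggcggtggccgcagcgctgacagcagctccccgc

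Both motifs are short and common, so the matches are a description and not evidence of binding. Of the 35 members with a window, 19 (54.3%) held ACGTG, against 19.6% of the 32851 promoter windows of the same length. GCGTG stood in 19 members (54.3%) and in 32.4% of all windows, and either motif in 27 members (77.1%) and in 43.8% of all windows. *Pdk1*, which was lower after crush, held a motif as did the 5 that were higher.

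In naive control ganglia, the isozymes of most steps were unequally represented. Levels between genes are compared here as CPM per kb of exon, with the limit that the counts cover introns too. *Epas1*, which encodes HIF-2 alpha, made up 83.1% of the summed HIF alpha level (24.3 ± 2.17 CPM per kb, SD, n = 3), *Hif1a* 16.2% (4.72 ± 0.334) and *Hif3a* 0.668%. *Egln2* made up 60.6% of the prolyl hydroxylases, *Egln1* 32.1% and *Egln3* 7.33%. Of the 2 glucose transporters in the list, *Slc2a3* (GLUT3, the main carrier of neurons) made up 63.3% and *Slc2a1* (GLUT1, known in glia and endothelium) 36.7%. *Hk1* made up 97.7% of the hexokinase level and the inducible *Hk2* 2.3%. Among phosphofructokinases, *Pfkm* had 65.1%, *Pfkp* 24.4% and *Pfkl* 10.5%. *Aldoa* made up 84.5% of the aldolases, *Eno2*, the neuronal enolase, 83.9% of the enolases, and *Ldhb* 54.4% of the lactate dehydrogenases. The enolase shares differed between the count tables: *Eno2* made up 64% and *Eno1* 36% in sham contralateral control ganglia.

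After sciatic nerve crush, glucose transporters and the PFKFB regulators of glycolysis rose, while most glycolytic enzymes and most HIF targets did not pass the test. In control ganglia, 9 of 38 members were called at an adjusted p under 0.05 by edgeR's quasi-likelihood test with Benjamini-Hochberg adjustment, 7 higher and 2 lower. That is 23.7%, and 21.6% of the 21261 genes tested were called (12.9% higher, 8.73% lower). In cKO ganglia 10 members were called, 7 higher and 3 lower, which is 26.3% against 18.6% of all genes (10.7% higher, 7.89% lower). These shares of members are near the background. At least 2-fold higher and called were *Slc2a1* and *Pfkfb4* in control (background 2.26%) and those 2 with *Hk2* in cKO (background 2.23%). The median log2 fold change of the members was 0.11 in control and 0.02 in cKO, against -0.02 and -0.005 over all genes. Of 12 members called in either genotype, 7 were called in both (*Slc2a1*, *Slc2a3*, *Pfkfb3*, *Pfkfb4*, *Hif1a*, *P4ha2*, *Pdk1*) and 11 had the same sign in both. The matching shares over all genes were not computed, so these counts have no background here. The 2 genotypes used separate mice, so neither contrast shares a library with the other. In bulk tissue, a change in the number of cells of a type and a change in RNA per cell cannot be told apart.

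**Figure D1:**
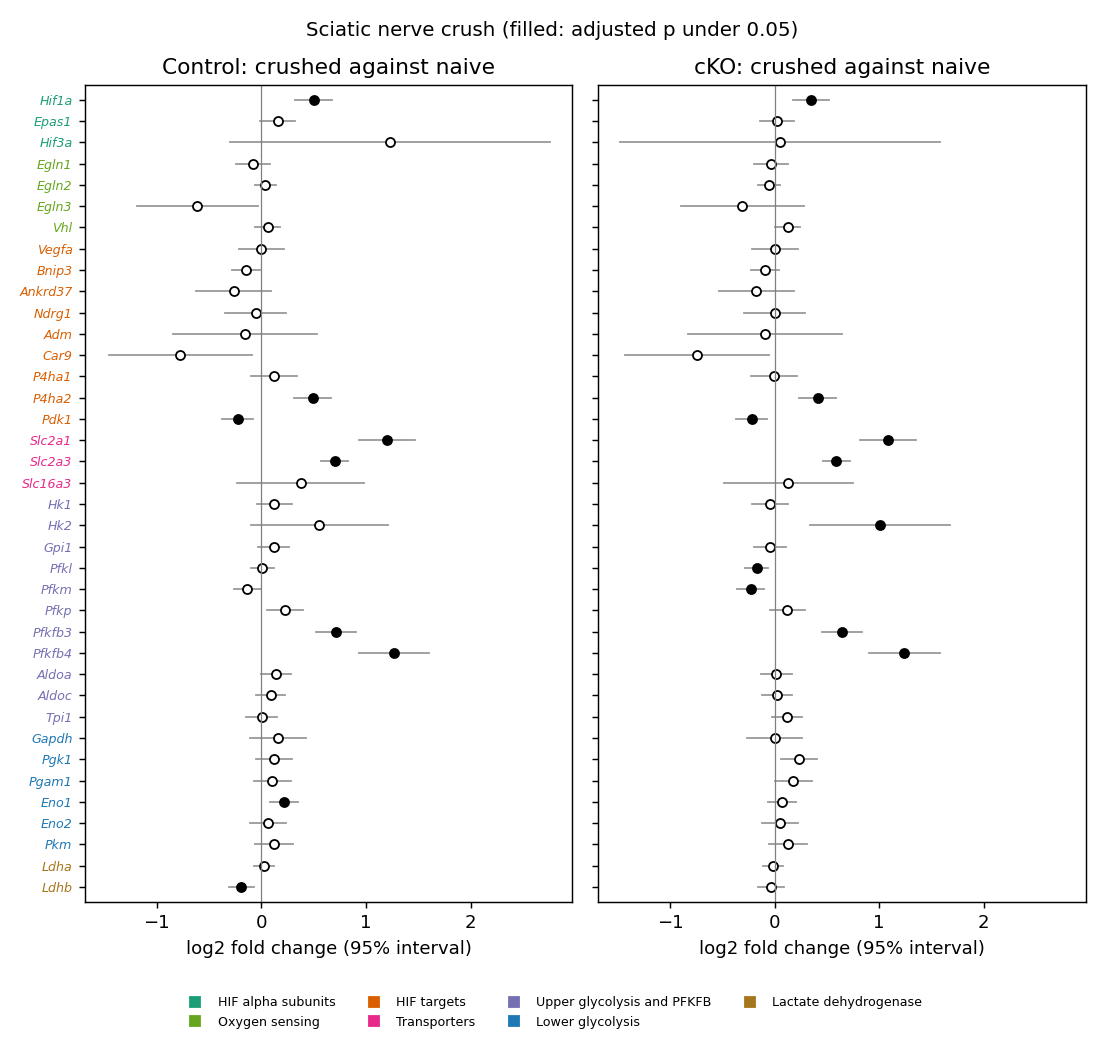
Log2 fold change of injured against naive ganglia (x axis) for each of the 38 genes (y axis, coloured by role) in control mice (left) and cKO mice (right), 3 libraries per group. Lines are 95% intervals and filled points passed an adjusted p of 0.05. The 2 glucose transporters, the 2 PFKFB genes, *Hif1a* and *P4ha2* lie to the right of 0 in both panels.

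Both glucose transporters rose after crush. *Slc2a1* (ENSMUSG00000028645.11, chr4:119108711-119137983, plus strand; coordinates from GENCODE M21 on GRCm38) was at 31.5, 32.2 and 37.0 CPM in the naive controls and at 78.7, 83.1 and 69.3 in the injured controls. In cKO it was at 31.8, 41.3 and 29.3 CPM in naive and at 64.8, 82.2 and 71.7 in injured ganglia. Every injured library lay above every naive library of its genotype, with a fold of 2.30 in control (log2 1.20, SE 0.12, adjusted p = 4.15e-05, edgeR) and 2.11 in cKO (log2 1.08, SE 0.12, adjusted p = 0.000107). The antisense gene Gm12868 shares part of the *Slc2a1* span and had 46.1% of its counts, and reads there were counted for both genes. *Slc2a3* (ENSMUSG00000003153.10, chr6:122727809-122801640, minus strand) was at 119.4, 123.0 and 116.0 CPM in the naive controls and at 200.6, 200.4 and 180.3 in the injured controls. The cKO values were 128.3, 119.8 and 123.5 CPM in naive and 184.5, 200.3 and 181.2 in injured ganglia. Again the groups did not overlap, and the fold was 1.62 in control (log2 0.70, SE 0.06, adjusted p = 1.09e-05) and 1.51 in cKO (log2 0.59, SE 0.06, adjusted p = 4.15e-05). The share of *Slc2a1* in the summed level per kb of both transporters was 45.1% in injured control ganglia. The lactate carrier *Slc16a3* was not called (log2 0.38, 95% interval -0.23 to 0.98 in control and 0.13, -0.48 to 0.75 in cKO).

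The PFKFB enzymes make fructose 2,6-bisphosphate, the strongest activator of phosphofructokinase. *Pfkfb4* (ENSMUSG00000025648.18, chr9:108991778-109032228, plus strand) had the largest log2 fold change among the called members in both genotypes. It was at 29.8, 25.1 and 24.7 CPM in naive and 63.7, 69.2 and 57.8 in injured controls, and at 25.7, 26.1 and 27.7 in naive and 48.0, 81.7 and 60.8 in injured cKO ganglia. The groups did not overlap, though the injured cKO libraries were widely spread. Its fold was 2.40 in control (log2 1.26, SE 0.15, adjusted p = 0.000139, edgeR) and 2.37 in cKO (log2 1.24, SE 0.15, adjusted p = 0.000187). *Pfkfb3* (ENSMUSG00000026773.19, chr2:11471433-11554077, minus strand) was at 86.7, 104.5 and 103.6 CPM in naive and 161.8, 172.9 and 148.4 in injured controls, and at 99.2, 96.3 and 113.1 in naive and 161.5, 172.8 and 152.5 in injured cKO ganglia. All injured values exceeded all naive values, with a fold of 1.64 in control (log2 0.71, SE 0.09, adjusted p = 0.000164) and 1.56 in cKO (log2 0.64, SE 0.09, adjusted p = 0.000395).

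Of the HIF alpha subunits, *Hif1a* alone was called. *Hif1a* (ENSMUSG00000021109.13, chr12:73901375-73947530, plus strand) was at 25.7, 28.3 and 29.5 CPM in naive and 42.9, 39.0 and 36.1 in injured controls, and at 31.6, 29.7 and 30.0 in naive and 42.3, 36.2 and 38.7 in injured cKO ganglia. The injured libraries lay above the naive ones in both genotypes, with a fold of 1.41 in control (log2 0.50, SE 0.08, adjusted p = 0.000973, edgeR) and 1.27 in cKO (log2 0.35, SE 0.08, adjusted p = 0.00963). The *Hif1a* count is uncertain, because the antisense gene Gm15283 overlaps it and had 101% of its counts and the overlapping Gm49321 had 73.1%. *Epas1* was at 126.6, 131.3 and 149.6 CPM in naive and 159.7, 144.1 and 149.0 in injured controls, and at 131.9, 159.7 and 140.9 in naive and 150.0, 143.8 and 149.8 in injured cKO ganglia. Its groups overlapped in both genotypes (log2 0.15, 95% interval -0.01 to 0.32, and 0.02, -0.14 to 0.19). *Hif3a* was low and variable, at 0.686, 1.11 and 2.26 CPM in naive and 4.31, 2.50 and 2.77 in injured controls, and at 0.871, 1.57 and 3.47 in naive and 4.74, 0.591 and 0.821 in injured cKO ganglia. The control groups did not overlap, but the interval was wide (log2 1.23, -0.30 to 2.76 in control, and 0.05, -1.47 to 1.58 in cKO). *Arnt*, the shared partner of HIF alpha and AhR, stands outside the list and was not called (log2 0.27, adjusted p = 0.0902 in control, and 0.15, adjusted p = 0.367 in cKO). Its paralog *Arnt2*, known mainly from neurons, rose in both (log2 0.29, adjusted p = 0.00412, and 0.38, adjusted p = 0.000784). Both were named for their role, after their values were seen.

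None of the 4 oxygen-sensing genes was called by edgeR in either genotype. At an unadjusted p under 0.05 *Egln3* passed in control and *Vhl* in cKO, and DESeq2 called none of the 4. Of all genes, 33.8% and 30.8% passed at that level in control and cKO, and DESeq2 called 19.5% and 17.2%. *Egln1* was at 80.7, 78.03 and 86.8 CPM in naive and 78.3, 75.6 and 77.5 in injured controls, and at 74.0, 89.4 and 72.1 in naive and 82.0, 77.3 and 73.0 in injured cKO ganglia. *Egln2* ranged from 116.5 to 124.9 CPM in the naive and from 113.4 to 125.2 in the injured libraries of both genotypes. *Egln3*, itself a HIF target, was at 9.53 to 19.98 CPM in naive and 6.79 to 12.2 in injured libraries (log2 -0.61, 95% interval -1.19 to -0.03 in control, and -0.31, -0.89 to 0.28 in cKO). *Vhl* was at 31.3 to 36.5 CPM in naive and 34.7 to 37.5 in injured libraries. Naive and injured values overlapped for all 4 genes in both genotypes.

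Among the 9 HIF targets, 1 rose and 1 fell after crush in each genotype. *P4ha2* (ENSMUSG00000018906.14, chr11:54100095-54131665, plus strand), a prolyl hydroxylase of collagen, was at 11.1, 9.66 and 9.78 CPM in naive and 14.2, 14.3 and 14.3 in injured controls, and at 10.3, 11 and 9.81 in naive and 12.9, 15.1 and 13.9 in injured cKO ganglia. The groups did not overlap, and its fold was 1.40 in control (log2 0.49, SE 0.08, adjusted p = 0.00115, edgeR) and 1.33 in cKO (log2 0.41, SE 0.08, adjusted p = 0.00375). *Pdk1* (ENSMUSG00000006494.11, chr2:71873224-71903858, plus strand), which encodes a kinase that holds pyruvate back from the mitochondria, went down. It was at 62.0, 61.1 and 62.3 CPM in naive and 50.3, 53.2 and 54.5 in injured controls, and at 66.7, 60.5 and 63.7 in naive and 59.1, 49.8 and 56.5 in injured cKO ganglia. All injured values were below all naive ones, by a small margin (log2 -0.23, SE 0.07, adjusted p = 0.0305 in control, and -0.22, SE 0.07, adjusted p = 0.0398 in cKO). *Vegfa*, the angiogenic growth factor, had a log2 fold change of 0.00 in both genotypes (95% interval -0.22 to 0.22 in control and -0.21 to 0.22 in cKO). The mitophagy gene *Bnip3* (log2 -0.15 and -0.09 in control and cKO), *Ndrg1* (-0.06 and 0.00), *P4ha1* (0.12 and -0.01), *Ankrd37* (-0.27 and -0.17), the vasodilator peptide gene *Adm* (-0.16 and -0.09) and the carbonic anhydrase gene *Car9* (-0.77 and -0.75) were not called. *Car9*, at under 1 CPM in every naive and injured library, and *Adm* and *Ankrd37*, at 0.915 to 2.20 CPM, had low counts, so a small change could be missed. Even so, *Car9* passed an unadjusted p under 0.05 in both genotypes, and *Bnip3* did in control. Of all genes, 33.8% passed at that level in control and 30.8% in cKO.

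Of the 19 glycolytic and lactate enzymes (the PFKFB pair included), 3 were higher and 1 lower in control, and 3 higher and 2 lower in cKO. Beyond the PFKFB pair the calls on these enzymes were lost when single libraries were left out. *Eno1* was at 101.5, 110.3 and 101.9 CPM in naive and 121.9, 124.0 and 117.4 in injured controls (log2 0.21, SE 0.06, adjusted p = 0.029, edgeR). *Ldhb*, which favours the use of lactate, fell from 165.4, 165.2 and 150.3 to 138.8, 141.2 and 140.7 CPM in control (log2 -0.19, SE 0.06, adjusted p = 0.0301). *Hk2*, the hexokinase that HIF is known to induce, was at 2.79, 4.54 and 2.66 CPM in naive and 4.91, 6.95 and 8.46 in injured cKO ganglia (log2 1.01, SE 0.31, adjusted p = 0.0381). In control it went from 6.26, 2.72 and 3.76 to 5.17, 5.85 and 7.63 CPM with overlap and was not called (log2 0.55, adjusted p = 0.221). The phosphofructokinase genes *Pfkm* (log2 -0.23, adjusted p = 0.0199) and *Pfkl* (log2 -0.17, adjusted p = 0.0343) were lower after crush in cKO, where *Pfkm* went from 116.6, 107.7 and 120.1 to 95.1, 97.2 and 105.1 CPM and *Pfkl* from 39.2, 37.9 and 39.0 to 34.0, 34.6 and 35.6. Uncalled by edgeR in both genotypes were *Ldha* (log2 0.02 and -0.02 in control and cKO), *Pkm* (0.12 and 0.13), *Aldoa* (0.14 and 0.02), *Tpi1* (0.00 and 0.12), *Pgk1* (0.12 and 0.23), *Gapdh* (0.16 and 0.00), *Pgam1* (0.10 and 0.18), *Eno2* (0.06 and 0.05), *Hk1* (0.12 and -0.04), *Gpi1* (0.12 and -0.04), *Aldoc* (0.09 and 0.02) and *Pfkp* (0.23 and 0.12). DESeq2 called *Pfkp* in control (log2 0.22, adjusted p = 0.049).

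The crush effect of no member differed between the genotypes by edgeR's test of the difference, which called 0 members and 0% of all genes. At an unadjusted p under 0.05, 1 member (*Pfkl*) and 2.95% of all genes passed, and DESeq2 called none. The interval of the difference for *Slc2a1* ran from -0.49 to 0.26 on the log2 scale and for *Hif1a* from -0.40 to 0.09.

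The calls were repeated with each of the 6 libraries of a contrast left out. *Slc2a1*, *Slc2a3*, *Pfkfb3*, *Pfkfb4*, *P4ha2* and *Hif1a* were called in 6 of 6 such fits in each genotype. *Pdk1* in control was called in 1 of 6 (lost without naive control 1, 2 or 3 or injured control 1 or 2; log2 -0.26 to -0.20, adjusted p 0.04 to 0.107, edgeR). *Eno1* was called in 2 of 6 (lost without naive control 1 or 3 or injured control 1 or 2; 0.19 to 0.25) and *Ldhb* in 1 of 6 (lost without naive control 1 or 2 or injured control 1, 2 or 3; -0.24 to -0.17). In cKO, *Pdk1* and *Hk2* were each called in 2 of 6 (lost without naive cKO 1 or 3 or injured cKO 2 or 3; -0.29 to -0.16 and 0.80 to 1.28). *Pfkl* and *Pfkm* were also called in 2 of 6 each (lost without naive cKO 1 or 3 or injured cKO 1 or 2; -0.20 to -0.17 and -0.29 to -0.20).

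Without the 2 injured libraries that went against their labelled sex, 9 members were called in control (18.5% of all genes) and 6 in cKO (11.1% of all genes), and injured cKO still held 1 male. The log2 fold changes in control and cKO were then 1.26 and 0.99 for *Slc2a1*, 0.74 and 0.55 for *Slc2a3*, 0.76 and 0.59 for *Pfkfb3*, 1.32 and 1.02 for *Pfkfb4*, 0.55 and 0.40 for *Hif1a*, and 0.48 and 0.35 for *P4ha2*, each still called. *Egln3* gained a call in control (log2 -0.89, adjusted p = 0.0494, edgeR), while *Eno1* in control lost its call (log2 0.23). In cKO, calls were lost for *Pdk1* (log2 -0.15), *Hk2* (0.99), *Pfkl* (-0.17) and *Pfkm* (-0.21). With the sex read from the transcripts as a covariate, 5 members and 6.65% of all genes were called in cKO, and *P4ha2* was not (log2 0.30, adjusted p = 0.124). Nor were *Pdk1* (log2 -0.12), *Hk2* (0.55), *Pfkl* (-0.20) and *Pfkm* (-0.28).

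Some cell type markers also moved between naive and injured ganglia. Summed endothelial markers were at 94.9 to 128.7 CPM in naive and 95.4 to 102.3 in injured controls (0 of 5 higher, 1 lower), and 0 of 5 macrophage markers were called in either genotype. Satellite glia markers summed to 656.8 to 696.4 CPM in naive and 832.5 to 871.5 in injured controls (2 of 5 higher, 1 lower), and to 631.6 to 815.4 and 833.1 to 936.1 in cKO (1 of 5 higher). Mural markers summed to 287.1 to 328.2 CPM in naive and 374.4 to 397.4 in injured controls (1 of 4 higher). Red blood cell genes summed to 382.4 to 582.9 CPM in naive and 355.5 to 432.7 in injured controls (0 of 5 called), and to 247.0 to 407.0 and 102.0 to 273.5 in cKO (2 of 5 lower). Neutrophil markers summed to 98.8 to 613.2 CPM in naive and 89.2 to 352.0 in injured controls, and to 163.7 to 319.2 and 49.2 to 112.3 in cKO, where the groups did not overlap (0 of 4 called in either genotype). Of the other lists, 1 of 6 neuron markers was lower in cKO and 1 of 2 tested T cell markers was lower in control. The part of these cells in the results was not tested.

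**Figure D2:**
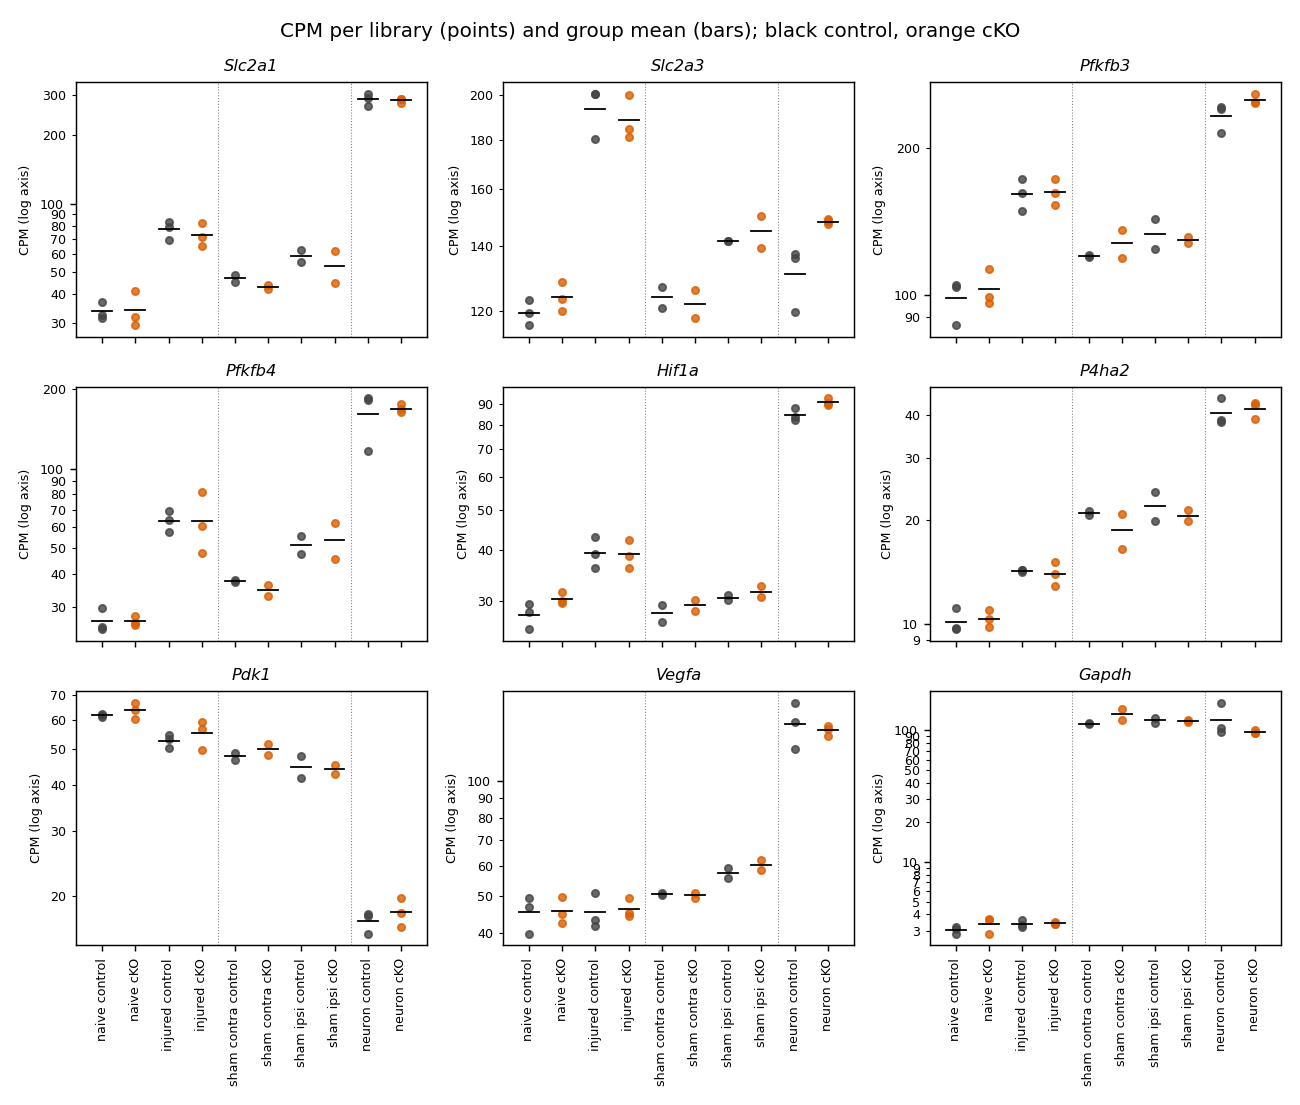
CPM on a log axis for 9 genes in each of the 10 groups, with 1 point per library (2 or 3 per group), a bar at the group mean, and control in black and cKO in orange. Dotted lines part the naive and injured, the sham and the neuron libraries. *Slc2a1*, *Slc2a3*, *Pfkfb3*, *Pfkfb4*, *Hif1a* and *P4ha2* step up after crush, *Pdk1* steps down, and *Gapdh* is near 3 CPM in the naive and injured libraries and above 90 CPM in all others.

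Before the neurons are compared with ganglia, a difference between the 2 count tables bears on the enzymes. The contralateral sham ganglia had no surgery on their side, yet 12 of the 19 glycolytic and lactate enzymes were at least 2-fold higher there than in naive ganglia (median log2 ratio 1.31). None of the other 19 members was 2-fold higher or lower (median 0.10). Of the 18554 genes with a mean of at least 1 CPM, 11.9% were at least 2-fold higher and 12% at least 2-fold lower (median 0.02). *Gapdh*, the textbook housekeeping enzyme, was at 2.84 to 3.68 CPM in the naive and 112.1 to 146.1 in the contralateral libraries, 38.2-fold apart. *Pgk1* was 11.1-fold higher, *Eno1* 5.43-fold, *Pgam1* 4.57-fold and *Gpi1* 4.11-fold. Of other counted genes, 81 hold a near copy of a *Gapdh* transcript stretch (at least 95% identity over at least 100 bases), 77 of them pseudogenes, and 4 do so for *Pgk1*, 3 for *Eno1*, 1 for *Pgam1* and 5 for *Gpi1*. *Pfkm* was 3.46-fold higher, *Pfkl* 3.41-fold and *Pfkp* 3.23-fold, and no near copy was found for these 3. The part of such copies in the difference was not tested. The 2 sets differ in sex, in the age and tamoxifen stated, in depth, in surgery elsewhere in the animal and in the table. *Gapdh* was at 3.35 and 3.49 CPM and *Pgk1* at 46.0 and 39.8 in injured cKO 2 and 3, which are male by transcripts and from operated mice, against 2.84 to 3.68 and 33.2 to 36.9 CPM in the naive females. In the neurons, which are from females and stand in the other table, they were at 95.1 to 162.0 and 397.2 to 439.9 CPM. Sex, surgery, the age and tamoxifen stated, depth and the table cannot be told apart for the contralateral ganglia. The part of each was not tested. Every comparison of these enzymes across the tables carries this limit.

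**Figure D3:**
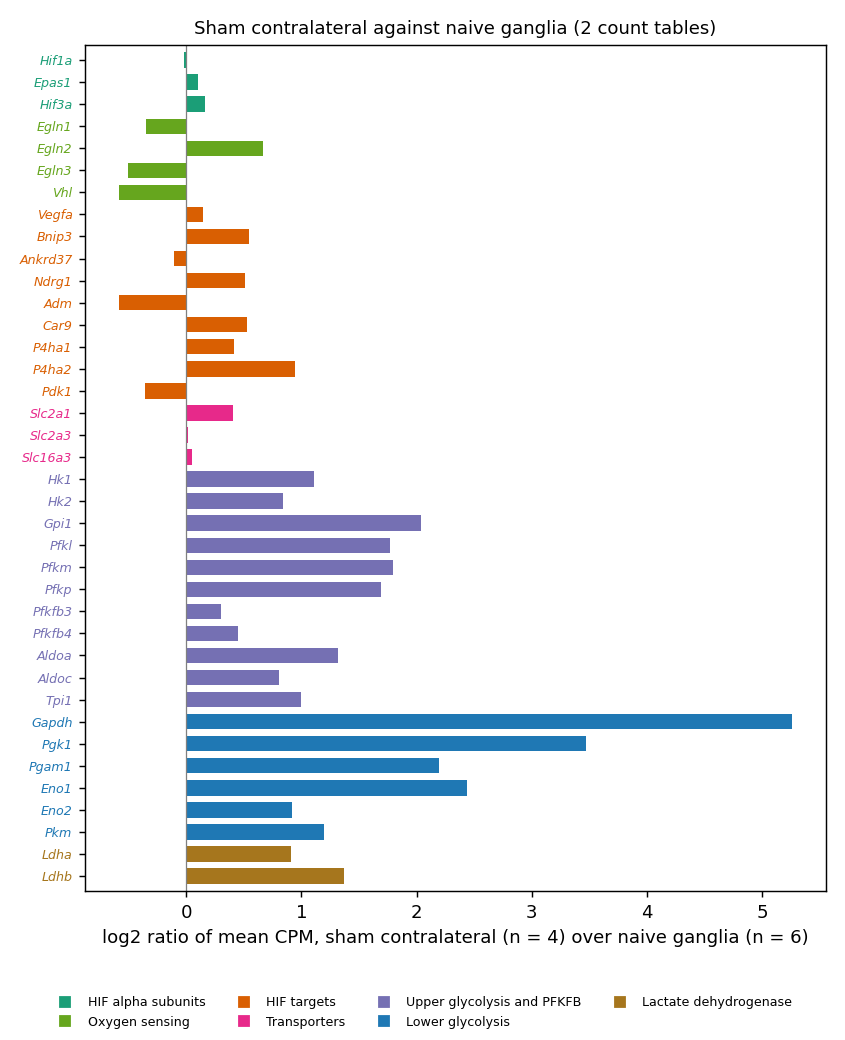
Log2 ratio of the mean CPM of 4 sham contralateral libraries over that of 6 naive libraries (x axis) for each of the 38 genes (y axis, coloured by role). Bars of upper and lower glycolysis reach far to the right, up to 38.2-fold for *Gapdh*, while the HIF subunits, sensors, targets and transporters stay within 2-fold of 0 on this axis.

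Cultured neurons differed from naive ganglia in most genes, and the members were no exception. In control, 31 of 38 members were called by edgeR (23 higher, 8 lower; 81.6%), against 83.2% of all genes (41.7% higher, 41.6% lower). In cKO, 32 were called (26 higher, 6 lower; 84.2%), against 82.1% of all genes (42% higher, 40.1% lower). Culture, enrichment of neurons, depth, the age and tamoxifen stated and the table cannot be told apart here. Set against the sham contralateral ganglia, which stand in the same table but are from males and from mice with surgery, 30 members were called in control (11 higher, 19 lower; background 68.7%, 33.1% higher and 35.6% lower) and 32 in cKO (14 higher, 18 lower; background 66.1%, 32.2% higher and 33.8% lower). The neurons are shared by both references, so the 2 sets of values are given side by side and are not independent. In all 4 comparisons, 10 members were higher (*Hif1a*, *Epas1*, *Vegfa*, *Adm*, *P4ha1*, *P4ha2*, *Slc2a1*, *Hk2*, *Pfkfb3*, *Pfkfb4*) and 4 were lower (*Hif3a*, *Egln1*, *Bnip3*, *Pdk1*). The median log2 change of the members was 0.80 in control and 0.81 in cKO against naive ganglia (all genes -0.02 and 0.01), and -0.25 and -0.29 against contralateral ganglia. The 14 members with the same call in all 4 comparisons hold 3 of the 19 glycolytic and lactate enzymes. The share of all genes with the same call in all 4 was not computed. With 66.1% to 83.2% of all genes called in each comparison, the count of 14 cannot be set against a background.

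**Figure D4:**
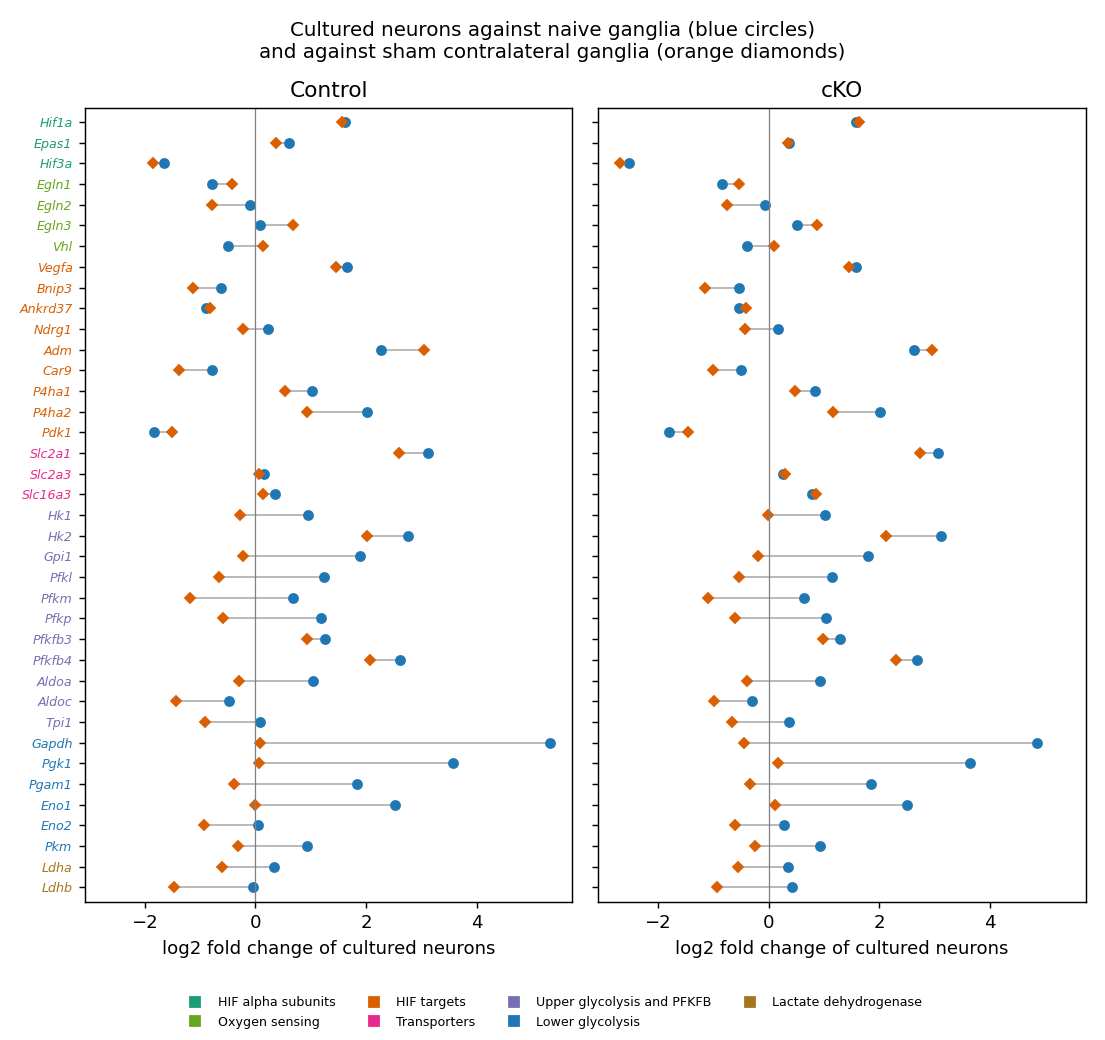
Log2 fold change of cultured neurons (x axis) for each of the 38 genes (y axis, coloured by role), in control (left) and cKO (right), against naive ganglia (blue circles) and against sham contralateral ganglia (orange diamonds), 3 neuron, 3 naive and 2 sham libraries per genotype. Grey lines join the 2 values of a gene. The 2 markers lie close together for *Hif1a*, *Vegfa* and *Slc2a1* and on opposite sides of 0 for most enzymes.

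In cultured neurons *Slc2a1* replaced *Slc2a3* as the larger of the 2 glucose transporters by level per kb. *Slc2a1* was at 268.5, 292.1 and 303.8 CPM in control and 277.8, 287.6 and 289.4 in cKO neurons, against at most 48.7 in any naive or contralateral library. Its fold was 8.65 in control and 8.37 in cKO against naive ganglia (log2 3.11, SE 0.11, adjusted p = 1.43e-10, and log2 3.07, SE 0.11, adjusted p = 1.6e-10, edgeR), and 6.04 and 6.66 against contralateral ganglia. *Slc2a3* was at 119.7, 136.0 and 137.2 CPM in control and 148.4, 149.0 and 147.3 in cKO neurons. That is a log2 change of 0.15 and 0.26 against naive and of 0.06 (not called) and 0.29 against contralateral ganglia. Its call in control against naive was lost without naive control 1, 2 or 3 or neuron control 2 or 3 (log2 0.09 to 0.21). *Slc2a1* thus made up 82% of the summed level per kb of both transporters in control neurons, against 36.7% in naive and 43.9% in contralateral control ganglia. *Pfkfb4* was at 116.2, 181.3 and 184.5 CPM in control and 167.5, 163.8 and 175.3 in cKO neurons (log2 2.61 and 2.67 against naive, 2.07 and 2.29 against contralateral). *Pfkfb3* was at 214.4 to 243.1 CPM in control and 247.0 to 258.3 in cKO neurons (log2 1.26 and 1.29, and 0.93 and 0.99). *Hk2* stood at 27.5 to 29.9 CPM in all 6 neuron libraries and at 2.66 to 7.87 in the naive and contralateral ones (log2 2.76 and 3.11, and 2.01 and 2.11). *Slc16a3* was at 5.74 to 8.28 CPM in control and 8.01 to 11.5 in cKO neurons (log2 0.35, not called, and 0.78 against naive, 0.13, not called, and 0.86 against contralateral), and its call in cKO against naive was lost without naive cKO 1 or 3 or neuron cKO 2.

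*Hif1a* was at 88.2, 83.5 and 82.4 CPM in control and 90.7, 92.8 and 89.5 in cKO neurons, and no naive or contralateral library exceeded 31.6. Its fold was 3.07 in control and 3.00 in cKO against naive ganglia (adjusted p = 2.52e-10 and 2.86e-10, edgeR) and 2.96 and 3.12 against contralateral ganglia. *Epas1* rose less, to 233.1, 213.4 and 164.7 CPM in control and 182.6, 200.4 and 172.6 in cKO neurons (log2 0.60 and 0.37, and 0.38 and 0.35), and its call in cKO against naive was lost without naive cKO 1 or 3 or neuron cKO 2. The share of *Hif1a* in the HIF alpha level per kb was 28.5% in control neurons. *Hif3a* was at 0.159 to 0.662 CPM in the neurons (log2 -1.66 and -2.52 against naive, -1.86 and -2.68 against contralateral), and its call in control against naive was lost without naive control 3 or neuron control 3. *Egln1* was lower, at 53.3, 47.9 and 41.0 CPM in control and 43.9, 44.3 and 43.5 in cKO neurons (log2 -0.78 and -0.83, and -0.42 and -0.53). *Egln2* was at 107.3 to 117.3 CPM in the neurons, close to naive ganglia (log2 -0.10 and -0.07, not called by edgeR) and below contralateral ones (-0.78 and -0.76). DESeq2 called *Egln2* lower than in naive ganglia in control (log2 -0.127, adjusted p = 0.0117) and in cKO (log2 -0.131, adjusted p = 0.00894). *Egln3* was at 14.0 to 16.4 CPM (log2 0.09, not called, and 0.52 against naive, 0.68 and 0.88 against contralateral), and its call in cKO against naive was lost without naive cKO 1 or 3 or neuron cKO 1, 2 or 3. *Vhl* changed sign with the reference (log2 -0.50 and -0.38 against naive, 0.14 and 0.10 against contralateral, both of the contralateral values not called). *Arnt* was higher in the neurons in these 4 comparisons (log2 1.74 and 1.53, and 1.56 and 1.31).

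*Vegfa* was at 159.9, 142.1 and 120.7 CPM in control and 136.7, 139.1 and 131.2 in cKO neurons, above all 10 naive and contralateral libraries, which reached at most 50.9 CPM (log2 1.65 and 1.57, and 1.45 and 1.44). *Adm* was at 6.91 to 8.28 CPM in the neurons and at 0.713 to 2.06 in naive and contralateral libraries (log2 2.27 and 2.63, and 3.05 and 2.96). The antisense gene Gm28863, in whose intron *Adm* lies, had 103% of its counts. *P4ha2* was at 38.2 to 44.7 CPM in the neurons (log2 2.01 in both genotypes against naive, 0.93 and 1.17 against contralateral) and *P4ha1* at 58.4 to 68.2 (1.03 and 0.84, and 0.53 and 0.47). Lower in the neurons were 4 of the 9 targets in control (*Pdk1*, *Bnip3*, *Ankrd37*, *Car9*) and 3 in cKO against naive ganglia. *Pdk1* was at 15.9, 17.7 and 18.0 CPM in control and 19.9, 16.6 and 18.1 in cKO neurons, and no naive or contralateral library was below 46.9 (log2 -1.83 and -1.80, and -1.50 and -1.45). *Bnip3* was at 41.0 to 52.2 CPM in the neurons and 66.2 to 109.2 in the naive and contralateral libraries (log2 -0.63 and -0.54, and -1.14 and -1.14). *Ankrd37* was at 0.595 to 1.46 CPM in the neurons (log2 -0.90 and -0.53, and -0.83 and -0.42, the last not called), and its call in cKO against naive was lost without naive cKO 1 or 3 or neuron cKO 1, 2 or 3. *Car9* was at 0.277 to 0.537 CPM (log2 -0.79 and -0.50, the latter not called, and -1.38 and -1.01). *Ndrg1*, at 233.3 to 270.5 CPM, was not called against naive ganglia (log2 0.23 and 0.18), and against contralateral ones it was not called in control (-0.23) and was lower in cKO (-0.43, adjusted p = 0.00431, edgeR). The targets of HIF thus included genes with opposite changes in the same libraries.

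For most glycolytic and lactate enzymes the size or sign of the change differed between the references. *Gapdh* was at 95.1 to 162.0 CPM in the neurons, which is a log2 change of 5.32 and 4.85 against naive and of 0.08 and -0.44 against contralateral ganglia (adjusted p = 0.731 and 0.067, edgeR). *Pgk1* had log2 3.57 and 3.65 against naive and 0.07 and 0.18 against contralateral ganglia, the last of these called (adjusted p = 0.0449). In control, 8 enzymes were higher against naive and lower against contralateral ganglia (*Aldoa*, *Gpi1*, *Hk1*, *Ldha*, *Pfkl*, *Pfkm*, *Pgam1*, *Pkm*). In cKO there were also 8, with *Tpi1* in place of *Hk1*. The share of all genes called in these opposite directions was not computed for either genotype, so both counts have no background here. *Eno2* and *Ldhb* were not called against naive ganglia (log2 0.05 and 0.27, and -0.05 and 0.42) and were lower than in contralateral ones (-0.93 and -0.61, and -1.47 and -0.93). *Aldoc*, the aldolase of glia, was at 72.7 to 125.6 CPM (log2 -0.48 and -0.30, the latter not called by edgeR, against naive, and -1.43 and -0.99 against contralateral). DESeq2 called *Aldoc* lower in cKO against naive ganglia (log2 -0.36, adjusted p = 0.0287). The culture effect of no member differed between genotypes by edgeR (0 called, background 0.00451%), 1 passed at an unadjusted p under 0.05 (*Tpi1*; 7.54% of all genes), and DESeq2 called 0.

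Cell type markers differed between the neuron libraries and the ganglia. Summed markers of 6 neuronal genes were at 5397 to 6367 CPM in naive and 7894 to 9098 in contralateral ganglia and at 3274 to 3937 in the neuron libraries (2 higher, 4 lower against naive), so the neuron libraries do not show a raised level of these markers. Summed endothelial markers were at 86.3 to 147.4 CPM in naive, 67.2 to 119.4 in contralateral and 894.3 to 1351 in neuron libraries (5 of 5 higher than naive in both genotypes). Schwann cell markers summed to 3366 to 5358 CPM in naive and 683.0 to 836.3 in neuron libraries (5 of 5 lower), and red blood cell genes to 247.0 to 582.9 and 5.14 to 25.4 (5 of 5 lower). Of the other lists in control against naive ganglia, satellite glia had 2 of 5 markers higher and 3 lower. Mural markers had 1 of 4 higher and 1 lower, macrophage markers 1 of 5 and 4, and fibroblast markers 1 of 4 and 3. All tested markers of neutrophils, T cells, skeletal muscle and adipocytes were lower. Changes in cell number and in RNA per cell cannot be told apart here. *Slc2a1*, *Epas1* and *Vegfa* are also known from cells of the vessel wall, and the part of these cells in the values was not tested.

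Between genotypes, no member was called in any of the 5 settings by edgeR. The background was 0.00941% of all genes in naive and in injured ganglia (0.0047% higher and 0.0047% lower in each), 0% in neurons, 0.00451% in sham ipsilateral and 0% in sham contralateral ganglia. At an unadjusted p under 0.05, 0 members passed in naive (5.79% of all genes) and 0 in injured ganglia (2.72%). There were 4 in neurons (*Slc2a3*, *Hk1*, *Slc16a3*, *Ndrg1*; 8% of all genes), 6 in sham ipsilateral (*Hk2*, *Slc16a3*, *Adm*, *Ldha*, *Hif3a*, *Aldoc*; 7.59%) and 2 in sham contralateral ganglia (*Gapdh*, *Aldoc*; 5.23%). All cKO values exceeded all control values for *Hif1a* in naive ganglia (5.79% of all genes) and for 5 members in neurons (*Hif1a*, *Slc2a3*, *Pfkfb3*, *Hk1*, *Ankrd37*; 7.07%), and were all under them for *Pfkl* in injured ganglia (4.02%) and *Ndrg1* in neurons (7.68%). On the sham ipsilateral side 6 members lay wholly above and 8 wholly below control (13.5% and 22.3% of all genes), and contralaterally 4 above and 6 below (20.1% and 18.2%). DESeq2 called 2, both in sham ipsilateral ganglia (*Hk2* and *Slc16a3*), where it called 0.686% of all genes. The log2 difference of cKO from control ranged from -0.42 to 0.55 over the members in naive ganglia and from -0.63 to 0.12 in injured ganglia, and from -0.32 to 0.47 in neurons. For *Hif1a* the 95% interval of the difference was -0.04 to 0.31 in naive and -0.19 to 0.16 in injured ganglia. For *Slc2a1* it was -0.24 to 0.30 and -0.35 to 0.17. For *Vegfa* it was -0.20 to 0.24 and -0.19 to 0.24.

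**Figure D5:**
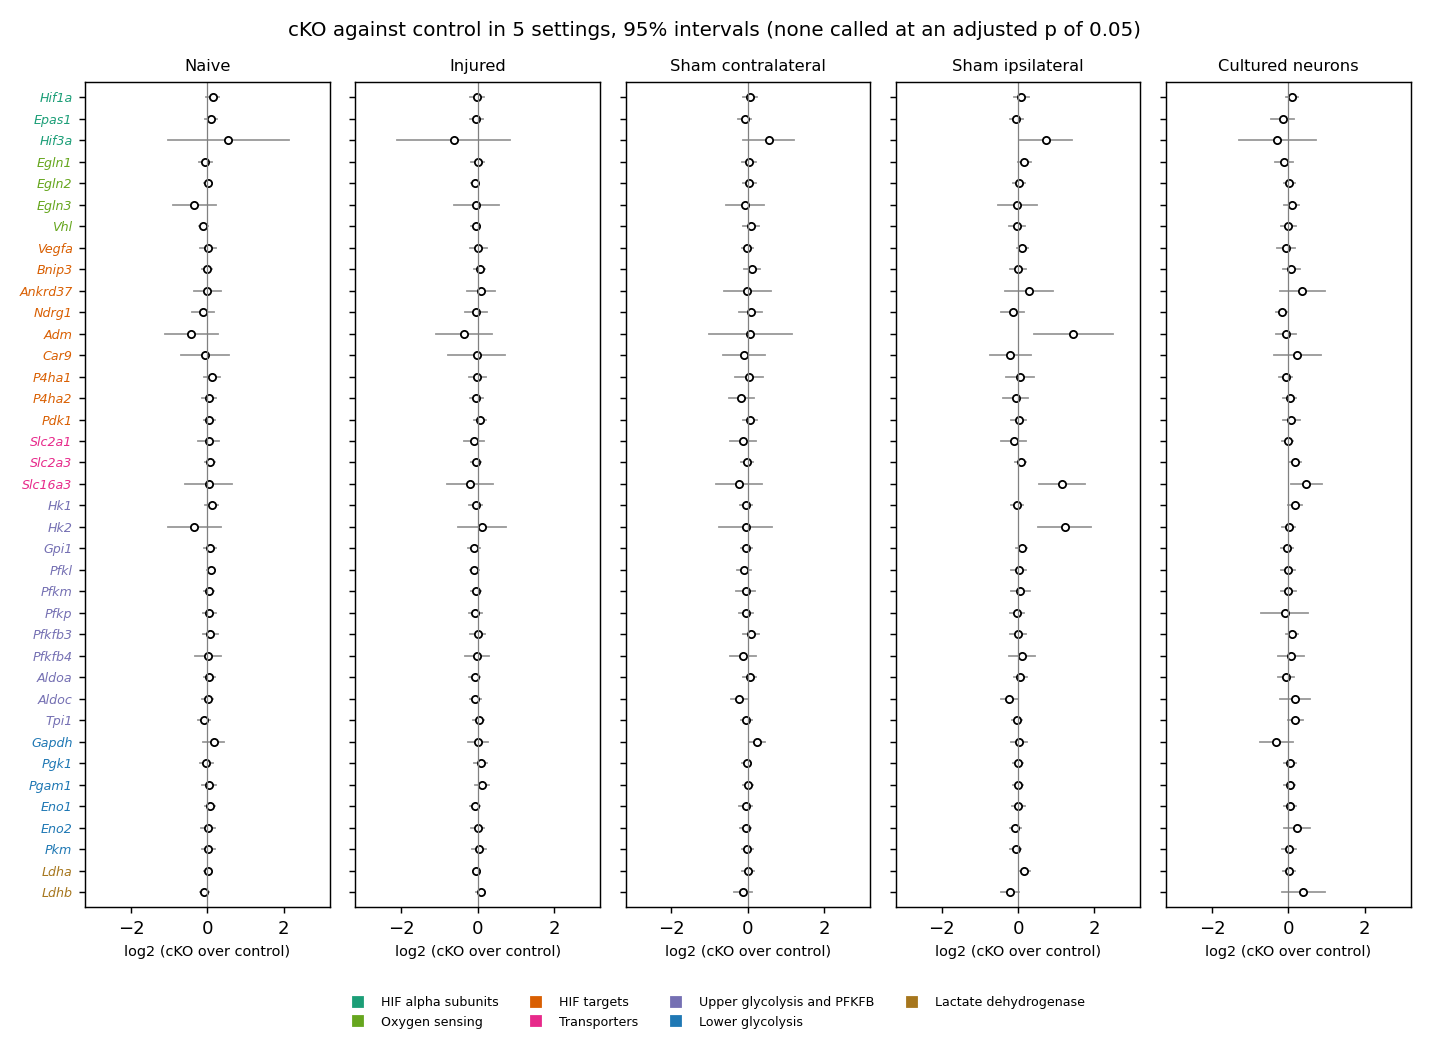
Log2 difference of cKO from control (x axis) with 95% intervals for each of the 38 genes (y axis, coloured by role) in naive (3 libraries per genotype), injured (3), sham contralateral (2), sham ipsilateral (2) and neuron (3) libraries. No point passed an adjusted p of 0.05. *Adm*, *Slc16a3* and *Hk2* lie above 1 in the sham ipsilateral panel.

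The largest differences were on the sham ipsilateral side. *Hk2* was at 7.84 and 4.28 CPM in control and at 14.9 and 12.8 in cKO ganglia there, without overlap (log2 1.22, adjusted p = 0.508, edgeR). With no filter on low counts its adjusted p was 0.000708, and with DESeq2 0.00582. These 2 fits called 1.79% and 0.686% of all genes, against 0.00451% in the main fit. *Slc16a3* was at 5.88 and 5.28 CPM in control and 9.28 and 15.1 in cKO (log2 1.16, adjusted p = 0.498, 0.000711 without the filter and 0.00566 with DESeq2). *Adm* was at 1.04 and 0.608 CPM in control and 3.10 and 1.35 in cKO (log2 1.45, adjusted p = 0.537, 0.0215 without the filter and 0.287 with DESeq2). The range over all alternatives was 0.000708 to 0.844 for *Hk2*, 0.000711 to 0.844 for *Slc16a3* and 0.0215 to 0.999 for *Adm*. Ipsilateral cKO 2 is the library with 1226 CPM of muscle markers, and muscle genes of the pathway were high in it, such as *Eno3* at 172.1 CPM (13.7 in ipsilateral cKO 1), *Pgam2* at 70.4 (8.15) and *Slc2a4* at 13.4 (0.802). Summed neutrophil markers were at 526.7 and 249.8 CPM in ipsilateral cKO 1 and 2 and at 185.9 and 136.0 in control 1 and 2 (0 of 4 called by edgeR). Summed macrophage markers were at 71.8 and 62.9 CPM in cKO and 57.6 and 52.3 in control (0 of 5 called). The part of these cells in the differences was not tested. Without ipsilateral cKO 2 the log2 difference was 1.30 for *Hk2*, 1.90 for *Adm* and 0.75 for *Slc16a3*. Without ipsilateral cKO 1, the sham library with the most neutrophil markers, it was 1.09 for *Hk2*, 0.71 for *Adm* and 1.45 for *Slc16a3*. Without a control library it was 0.83 to 1.74 for *Hk2*, 1.10 to 1.92 for *Adm* and 1.06 to 1.25 for *Slc16a3*. With 2 mice per genotype these differences rest on few animals.

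Sham surgery itself was not followed by a called change in any member, with ipsilateral set against contralateral ganglia over both genotypes (0 of 38 by edgeR, background 0.00451%). At an unadjusted p under 0.05, 6 passed, each higher on the operated side (*Pfkfb4* log2 0.57, *Slc16a3* 0.57, *Slc2a1* 0.35, *Vegfa* 0.25, *Slc2a3* 0.24, *Hif1a* 0.14), and the smallest adjusted p was 0.247. Of all genes 7.56% passed at that level. DESeq2 called 3 (*Pfkfb4*, *Slc2a3*, *Vegfa*) and 200 of all genes (0.903%), of which 177 were higher on the operated side. *Pfkfb4* was at 37.4, 37.9, 36.3 and 32.9 CPM contralaterally (control 1 and 2, cKO 1 and 2) and at 55.4, 47.4, 45.4 and 62.3 ipsilaterally, without overlap. *Slc2a3* was at 120.9, 126.9, 126.0 and 118.0 CPM contralaterally and 141.6, 141.5, 150.3 and 139.3 ipsilaterally, and *Vegfa* at 50.2, 50.9, 50.8 and 49.5 against 55.5, 59.2, 62.1 and 58.4, also without overlap. Over all genes, 2.17% lay wholly above and 1.95% wholly below on the operated side. *Slc2a1* overlapped, at 48.7, 45.0, 44.1 and 42.0 CPM contralaterally and 62.5, 55.6, 44.8 and 61.9 ipsilaterally. Without ipsilateral cKO 1, *Pfkfb4* was called (log2 0.67, adjusted p = 0.0243). With the mouse as a block none was called (*Pfkfb4* log2 0.56, adjusted p = 0.247).

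Other genes of these pathways were taken from a list of 48 (further HIF targets, isozymes, glycogen, pyruvate and pentose phosphate genes). After crush, 7 were higher and 2 lower in control (18.8%) and 6 higher and 2 lower in cKO (16.7%), near the background shares. Of the 6 with the largest change among those called in control, 5 are given here. *Cited2*, which competes with HIF alpha for its coactivator, rose by log2 1.08 (adjusted p = 0.00098, edgeR), the oxidative folding gene *Ero1l* by 0.38 (adjusted p = 0.0041) and *Pgm2* by 0.36 (adjusted p = 0.0184). The pyruvate dehydrogenase kinase gene *Pdk2* (log2 -0.50, adjusted p = 0.00341) and *Bpgm*, of the bisphosphoglycerate shunt (log2 -0.39, adjusted p = 0.037), were lower. In cultured neurons against naive ganglia, 24 were higher and 12 lower in control (75%, against 83.2% of all genes) and 27 higher and 11 lower in cKO (79.2%, against 82.1%). Of the 6 with the largest change in control, 5 are given here: the heme oxygenase gene *Hmox1* (log2 5.73), *Stc2* (4.00), the chemokine receptor gene *Cxcr4* (3.26), *Pgm2* (3.197) and the collagen crosslinking gene *Lox* (-3.11).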

How the data were processed

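The authors deposited whole-number counts per gene in 2 tables (12 and 14 libraries), each with a matching FPKM table. The submitters' processing notes name Trim Galore, HISAT2, featureCounts and mm10, and the labels' protocols name RNeasy Plus Mini extraction and TruSeq Stranded mRNA libraries. Versions, annotation and strand setting are not given in the sources used here. The deposited FPKM implied the gene's span with introns as its length (within 1% for 99.4% or more of genes in 2 libraries checked) and was not used otherwise. Reads in stretches shared by 2 genes were counted for both. Gene names are from GENCODE M21 (55141 of 55401 identifiers, 99.53%). All value columns belonged to labelled samples.

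The counts were tested with edgeR 4.0.16 (R 4.3.3): filterByExpr (minimum count 10, minimum total 15), TMM, quasi-likelihood F test, 1 mean per group, and Benjamini-Hochberg adjustment over all genes, called under 0.05. The fits held 12 naive and injured libraries (21261 genes), 6 neuron libraries (23295), 8 sham libraries (22160), and 6 naive with 6 neuron libraries (22185). SE is the log2 fold change over the square root of F. The scripts recovered known changes in simulated data. The simulation gave every gene of a fit the same spread, so it does not measure power in the real libraries. P-values measure the spread between libraries, each numbered by mouse in the labels, the neuron libraries included. Replicates differed by more than counting noise (chi-square per degree of freedom 3.32 to 39.9). Correlations of deviations between naive and injured libraries of the same replicate number were -0.1 to 0.272. Those between the sham sides, which are paired by mouse per the labels, were 0.184 in control and -0.121 in cKO. This measure therefore cannot tell whether replicate numbers pair libraries.

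The members and lists were chosen with earlier results of these data known. Values per library are given for called members, HIF subunits and sensors, and the 6 other pathway genes with the largest called change are named for crush and for culture in control. Of these, 1 item is not reported here. Alternatives were DESeq2 1.42.0, RLE factors, no filter, an adjusted p under 0.1, at least 10 counts in each library, leaving out each library, the replicate block, only the groups compared, sex covariates, dropping the 2 mismatched libraries, and the contralateral reference. The crossed mouse block and the side effect by genotype were added after seeing the data.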

Additional observations from a re-analysis of the deposited data

Results flagged for a closer look

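*Hk1*, the main hexokinase of neurons, lay on opposite sides of control in 2 settings. In cultured neurons it was higher in every cKO library (580.0, 580.7 and 572.2 CPM) than in every control library (454.5, 537.6 and 532.4), a log2 difference of 0.18, and 7.07% of all genes lay wholly above control there. In sham contralateral ganglia it was lower in both cKO libraries (588.4 and 580.1 CPM) than in both control libraries (599.0 and 605.6), a log2 difference of -0.047, and 18.2% of all genes lay wholly below control there. Neither was called by edgeR (adjusted p = 0.617 and 0.941), and the difference between the settings was not tested.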

How the results depend on the processing

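After crush, the number of members called in cKO was 10, with 6 to 10 when a library was left out, 6 without the 2 libraries that went against their labelled sex and 5 with the sex read from transcripts as a covariate. In control it was 9, with 6 to 9 when a library was left out and 7 to 10 under the other alternatives. The replicate block gave 9 in control and 8 in cKO. Genotype calls on the sham ipsilateral side went from 0 to 3 with no filter (1.79% of all genes called) and to 2 with DESeq2 (0.686%). Sham side calls went from 0 to 4 with no filter, to 3 with DESeq2 and to 0 to 1 when a library was left out, and stayed at 0 with the mouse as a replicate block and with the cKO mice crossed. The block left 0 members called in each genotype comparison and 30 and 32 in culture in control and cKO. Culture calls ranged from 30 to 32 in control and 28 to 34 in cKO when a library was left out, and from 29 to 32 and 32 to 36 under the other alternatives. Against sham contralateral ganglia, the log2 change of cultured control neurons turned its sign to -0.011 for *Eno1*, 0.14 for *Vhl*, -0.93 for *Eno2*, -0.91 for *Tpi1*, -0.22 for *Gpi1*, -0.61 for *Ldha*, -0.30 for *Aldoa*, -0.32 for *Pkm*, -0.27 for *Hk1*, -0.66 for *Pfkl*, -0.59 for *Pfkp*, -1.19 for *Pfkm*, -0.40 for *Pgam1* and, not called under either reference, -0.23 for *Ndrg1*. That of cKO neurons turned to 0.10 for *Vhl*, -0.61 for *Eno2*, -0.66 for *Tpi1*, -0.44 for *Gapdh*, -0.93 for *Ldhb*, -0.19 for *Gpi1*, -0.56 for *Ldha*, -0.38 for *Aldoa*, -0.25 for *Pkm*, -0.0082 for *Hk1*, -0.54 for *Pfkl*, -0.60 for *Pfkp*, -0.43 for *Ndrg1*, -1.10 for *Pfkm* and -0.33 for *Pgam1*. The cause was not tested. The counts of *Car9*, *Hif3a*, *Adm* and *Ankrd37* are low, which limits what can be detected for them. *Hif3a* also varied within a group, from 0.591 to 4.74 CPM in injured cKO ganglia.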
